A study of Bos taurus with 8 samples.

Results

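Integrins are cell surface receptors built of an alpha and a beta subunit, and they hold cells to the extracellular matrix and to other cells. The transcripts of 10 integrin subunits were followed across the cell types of bovine muscle and of cultures grown from it. They were ITGA1, ITGA3, ITGA4, ITGA5, ITGA6, ITGA7, ITGA11, ITGAV, ITGB1 and ITGB3, chosen by gene symbol from the 21880 genes of the count matrices, and each symbol matched 1 gene. The alpha subunit largely sets which matrix protein is bound: ITGA3, ITGA6 and ITGA7 are subunits of laminin receptors, ITGA1 and ITGA11 of collagen receptors, ITGA5 and ITGAV of receptors for fibronectin, vitronectin and other ligands, and ITGA4 of a leukocyte receptor for VCAM1 and fibronectin. ITGB1 is the common partner of most of these alpha chains, and ITGB3 pairs with ITGAV. In muscle, ITGA7 with ITGB1 is the laminin receptor of the muscle lineage, and antibodies against integrins are widely used to sort muscle-derived cells.

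The study sequenced single cells from the semitendinosus muscle of 10 Belgian Blue cattle in 5 libraries, each of which pooled all donor animals of a timepoint. Timepoint 1 was the unsorted digest of muscle, and Timepoint 2 (passage 0) unsorted cells of all donors but donor 3, kept for 72 h on fibronectin in a medium free of serum. For Timepoints 3, 4 and 5 (passages 2, 5 and 8), donors 1, 2 and 9 were kept as unsorted cultures on fibronectin, donors 5, 6 and 10 as satellite cell (SC) cultures on laminin-521, and donors 4, 7 and 8 as fibro-adipogenic progenitor (FAP) cultures on collagen I. SC and FAP cultures came from a cell sort at 72 h that stained ITGA7, ITGA5, JAM-1 and CD45, so that donor, with its age and sex, sort and coating cannot be told apart between cultures, nor timepoint and library between timepoints.

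After quality control 36129 cells carried a donor and a deposited cell type, from 2772 cells at Timepoint 5 to 10405 at Timepoint 4, with a median of 4184 UMIs (unique molecules counted) per cell in muscle and of 18340 to 27239.5 in culture. SCs are the resident muscle stem cells, FAPs the stromal progenitors of the muscle interstitium, VECs and LECs vascular and lymphatic endothelial cells, and SMMCs smooth muscle and mesenchymal cells of vessel walls. The fixed marker lists were highest in the type of that name at Timepoint 1 for FAPs, SCs, VECs, LECs, SMMCs, macrophages and lymphocytes. At Timepoint 2 the SC list was higher in SMMCs than in SCs, with a summed level of 257 against 155 CPM (UMIs of a gene per 1000000 UMIs); DES, an intermediate filament gene of all muscle cells, was at 251 in SMMCs and 46.6 in SCs, whereas MYF5, a myogenic factor, was at 3.62 and 59.6. RNA of muscle fibres was present in muscle libraries, where the summed myocyte markers reached 942 in FAPs and 523 in SCs against 0.63 and 0.65 at passage 0, and its part in the results was not tested. Between 4 and 29 cell barcodes were shared by a pair of libraries.

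Levels in CPM are the UMIs of a gene per 1000000 UMIs of 1 cell type in 1 donor, given as mean ± SD over donors with at least 10 cells of that type. They order cell types for a gene and are not compared between genes. Because the deposited types were built from these same expression values, a type against another type is a description with no test.

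In muscle the laminin receptor subunits were split between cell types (see the plot of mean levels by cell type). ITGA7 (ENSBTAG00000012897), the muscle laminin receptor chain, was highest in SMMCs, at 346 ± 132 CPM (SD, n = 10; lowest 182, median 315, highest 621), followed by SCs at 204 ± 47.85 CPM (143, 200 and 281). SMMCs exceeded SCs in 8 of 10 donors and their ranges overlapped, so that these neighbours did not separate beyond their spread. VECs (24.8 ± 23.0 CPM) and FAPs (8.31 ± 4.36 CPM) lay below the lowest SC value in every donor.

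ITGA6 (ENSBTAG00000017266), a laminin receptor chain that is also known from endothelium, was an endothelial transcript here. VECs held 591 ± 64.2 CPM (484, 576 and 708; n = 10) and LECs 236 ± 90.3 CPM (154 to 356; n = 4), without overlap between them. Lymphocytes followed at 83.0 ± 32.2 CPM, and SCs (15.4 ± 11.1 CPM) and FAPs (9.28 ± 6.53 CPM) were low.

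ITGA3 (ENSBTAG00000019498), which forms a receptor for laminins of the basement membrane, was highest in SMMCs, at 74.5 ± 45.2 CPM (0, 89.9 and 136). Lymphocytes had 14.6 ± 16.7 CPM of ITGA3 and VECs 6.95 ± 6.50 CPM, and both ranges overlapped that of SMMCs. SCs and FAPs were low, with 3 UMIs of ITGA3 in SCs of all 10 donors together and 10 UMIs in FAPs. No ITGA3 UMI was found in LECs, which allows up to 11.8 CPM.

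The collagen receptor subunits marked different compartments. ITGA1 (ENSBTAG00000016525) was at 364 ± 73.7 CPM in SMMCs (280, 352 and 494) and at 161 ± 30.2 CPM in VECs (118, 163 and 214), with SMMCs higher in 10 of 10 donors and no overlap. FAPs (8.50 ± 5.92 CPM) and SCs (6.43 ± 7.59 CPM) overlapped each other at low levels.

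ITGA11 (ENSBTAG00000008380), the collagen receptor chain of fibroblasts, was highest in FAPs among the types with a level, at 16.1 ± 7.94 CPM (6.03, 14.9 and 31.4). FAPs held 135 of its 151 UMIs in muscle, and 7723469 of the 20977722 UMIs of all genes. Tendon cells (tenocytes), glial cells and myocytes had too few cells per donor for a level. SCs, VECs and macrophages held 0 UMIs, which allows up to 1.07, 0.73 and 1.16 CPM. These limits cover counting error only.

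ITGA5 (ENSBTAG00000013745), the fibronectin receptor chain used in the sort, did not separate VECs (133 ± 28.8 CPM; 91.3 to 172) from FAPs (129 ± 54.8 CPM; 69.2, 140 and 228), and VECs were higher in 4 of 10 donors. SMMCs had 88.6 ± 45.4 CPM of ITGA5. SCs were lower, at 23.3 ± 19.8 CPM (2.82, 19.3 and 71.7), and their highest donor overlapped the FAP range. ITGAV (ENSBTAG00000019929), the alpha chain of vitronectin receptors, was close in FAPs, SCs and SMMCs, with means of 50.9 ± 10.7, 47.1 ± 14.2 and 46.9 ± 21.4 CPM, against 21.5 CPM in VECs and 3.74 CPM in lymphocytes.

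ITGA4 (ENSBTAG00000009256) was a leukocyte transcript. Lymphocytes held 63.7 ± 38.3 CPM (25.0, 58.8 and 155) and macrophages 46.9 ± 14.5 CPM (33.3, 42.5 and 84.2), which overlapped. SMMCs followed at 14.2 ± 9.62 CPM, below every macrophage value, and FAPs, SCs and VECs together held 5 UMIs of ITGA4.

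ITGB1 (ENSBTAG00000015910), the shared beta chain, was found in every type and was highest in SMMCs, at 2020 ± 302 CPM (1562, 2001 and 2463), without overlap with VECs (769 ± 43.8 CPM; 669 to 814). FAPs were at 635 ± 78.1 CPM and SCs at 422 ± 51.6 CPM. ITGB3 (ENSBTAG00000009987), the beta chain of the vitronectin receptor, was highest in LECs (77.1 ± 30.6 CPM, n = 4) and FAPs (71.8 ± 26.2 CPM; 27.9, 72.8 and 109), which overlapped, and SCs of 10 donors held 5 ITGB3 UMIs together.

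**Figure D1:**
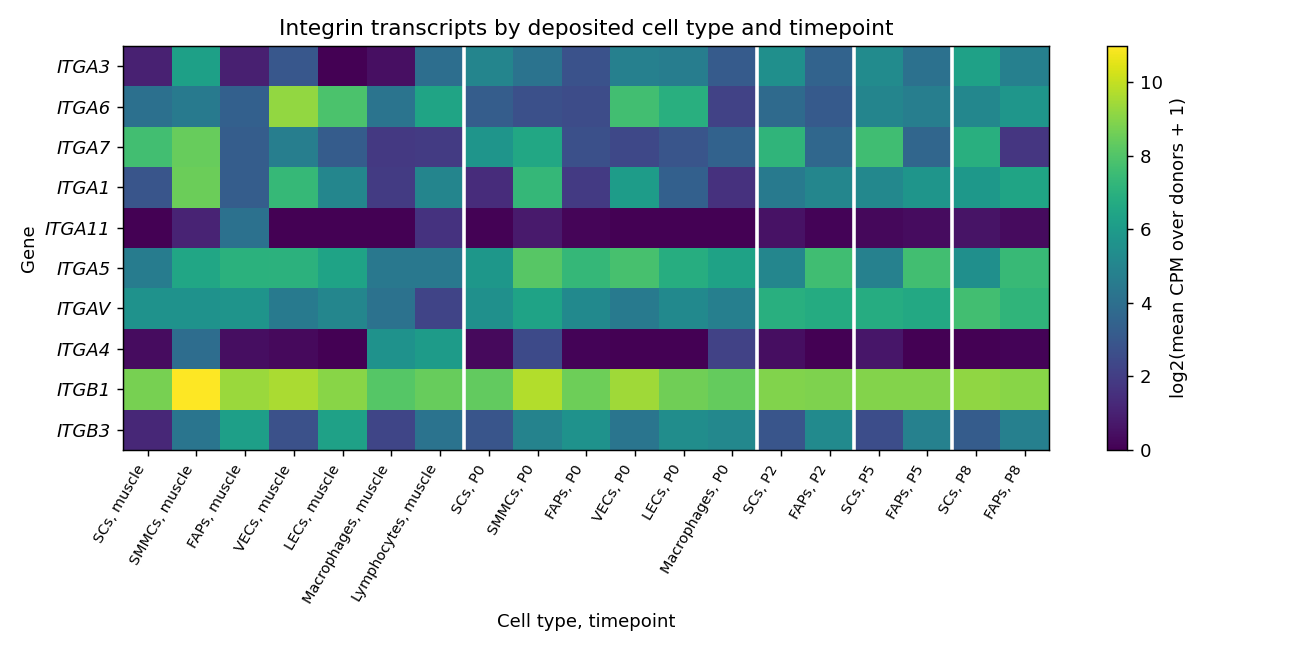
Mean integrin transcript level, with the 10 subunits as rows and each cell type at a timepoint as a column. Levels are in CPM averaged over donors with at least 10 cells, on a log colour scale. In muscle ITGA6 peaked in VECs at 591 CPM, ITGA7, ITGA1 and ITGB1 in SMMCs at 346, 364 and 2020 CPM, and ITGA4 in lymphocytes at 63.7 CPM.

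**Figure D2:**
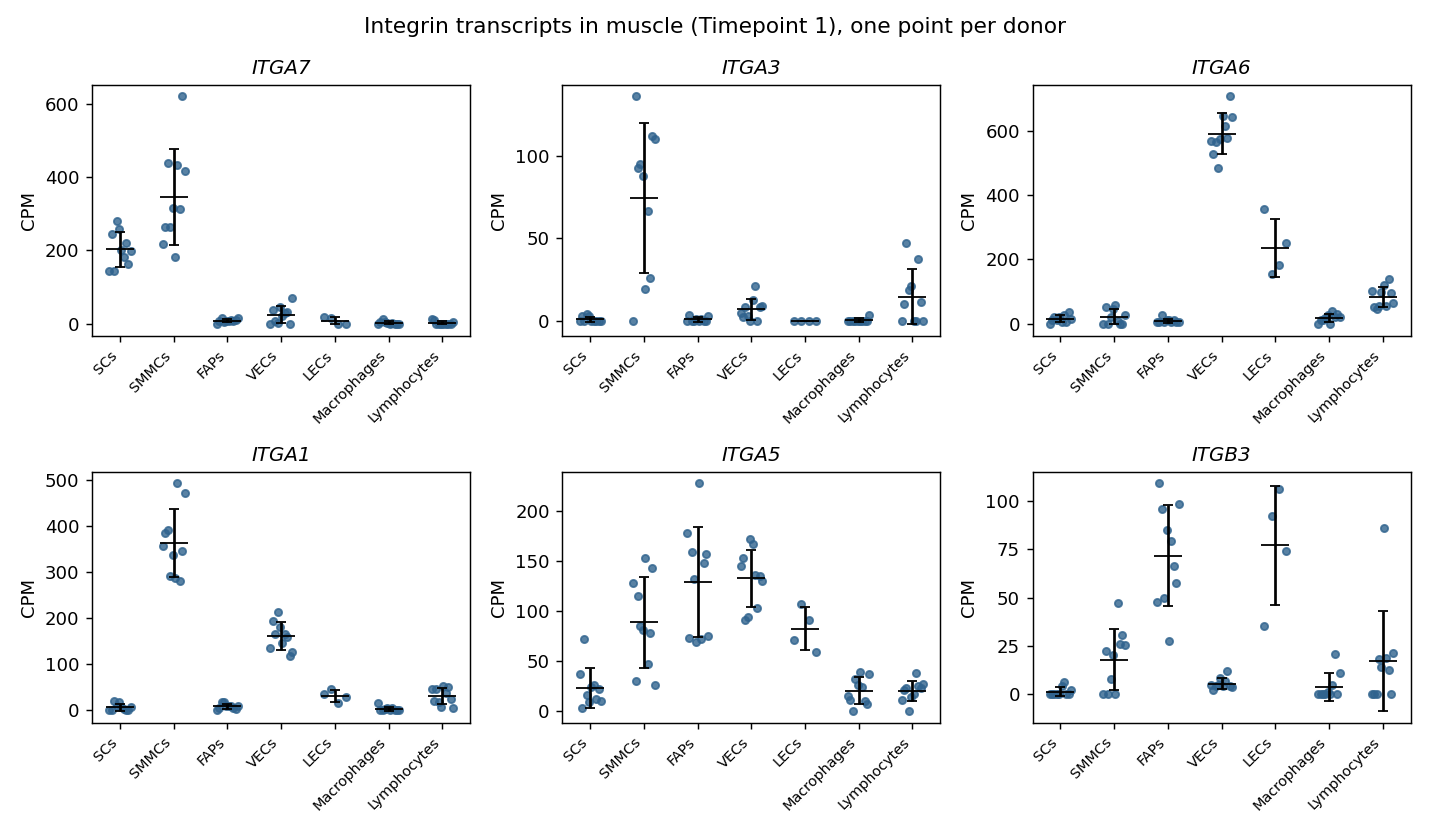
Integrin levels of single donors in muscle (each point is 1 donor with at least 10 cells of the type; bars are means), in CPM by cell type. VECs stood above all other types for ITGA6, and SMMCs and SCs above VECs and FAPs for ITGA7.

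Across the 19 combinations of cell type and timepoint with at least 3 donors, the mean log2(CPM + 1) of ITGA1 and ITGB1 moved together (Pearson r = 0.82), as did ITGA5 and ITGB3 (r = 0.66), and the lowest correlation was between ITGA4 and ITGAV (r = -0.60). The points share libraries and donors, and these values describe them without a test. Among 9757 genes of at least 5 CPM on average, those most like ITGA7 were RBM24, a muscle RNA-binding protein (r = 0.93), SEPTIN4 (r = 0.89) and DES (r = 0.88). The closest gene was STAP2 for ITGA6 (r = 0.93), WAS, a blood cell actin regulator, for ITGA4 (r = 0.94), COPZ2 for ITGAV (r = 0.95), VIT for ITGA11 (r = 0.90), INKA1 for ITGA5 (r = 0.85), MYL6 for ITGA1 (r = 0.86), SH3RF1 for ITGB1 (r = 0.89), PELO for ITGA3 (r = 0.83) and PROCR for ITGB3 (r = 0.81).

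The move from muscle to 72 h of culture was tested within each deposited type. Donor sums of 1 type at Timepoint 2 were set against those at Timepoint 1, and a gene was called at a Benjamini-Hochberg adjusted p under 0.05 in edgeR's quasi-likelihood test with a log2 change beyond 1 in size. Log2 changes are of TMM-scaled levels and can differ from the ratio of the CPM values. Large shares of all tested genes passed, so that counts of integrins are read against those shares.

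ITGA7 fell in both muscle-lineage and vessel-wall cells. In SCs it went from 143 to 281 CPM in muscle to 52.3 ± 4.87 CPM at passage 0 (44.9, 53.2 and 59.1; n = 9), so that the ranges did not overlap, a log2 change of -2.05 ± 0.11 (SE; adjusted p = 9.71e-15). In SMMCs ITGA7 went to 93.7 ± 19.1 CPM (74.4, 91.6 and 124; n = 7), a log2 change of -1.95 ± 0.20 (adjusted p = 9.55e-09). The lowest SMMC donor lay above the highest SC donor at passage 0. With all donor sums of a fit thinned to the smallest of them, the ITGA7 changes were -1.35 in SCs (adjusted p = 0.22) and -1.20 in SMMCs (adjusted p = 0.085). Below, libraries thinned to equal depth means this step on donor sums, which discards most counts of the deeper sums.

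ITGA6 fell in endothelium and was still highest there. VECs held 201 ± 25.1 CPM at passage 0 (168, 197 and 249) after 484 to 708 CPM in muscle, a log2 change of -1.59 ± 0.09 (adjusted p = 4.46e-15). LECs held 122 ± 27.0 CPM of ITGA6, and their log2 change of -0.9998 ± 0.25 (adjusted p = 0.00215) did not reach the size asked for a call.

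ITGA3 levels were higher in culture in VECs and lower in SMMCs, which is given as a description. In VECs ITGA3 went from 6.95 ± 6.50 CPM (0, 6.57 and 21.0) to 26.1 ± 7.06 CPM (18.5, 24.5 and 39.4), a log2 change of 1.99. In SMMCs it went to 17.4 ± 6.89 CPM (5.91, 20.3 and 26.1), a log2 change of -2.05. Both changes were past the thresholds for a call. However, ITGA3 passed the filter on low counts in VECs mainly through its culture level and in SMMCs only through its muscle level. SCs went from 3 UMIs of ITGA3 in muscle to 30.8 ± 10.4 CPM (18.2, 29.0 and 53.1), the highest mean of the types at passage 0, which overlapped that of VECs and was above it in 4 of 9 donors, and the gene did not pass the filter on low counts in the SC fit and has no test there. FAPs stayed low, at 5.75 ± 1.04 CPM of ITGA3. With libraries thinned to equal depth ITGA3 no longer passed the filter in VECs and SMMCs.

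The collagen receptor chain ITGA1 was lower in culture in VECs, SMMCs and FAPs. ITGA1 fell in VECs to 66.1 ± 23.2 CPM (log2 change -1.38 ± 0.17, adjusted p = 6.06e-08) and in SMMCs to 156 ± 35.8 CPM (-1.23 ± 0.14, adjusted p = 4.29e-08). In FAPs ITGA1 went from 8.50 to 2.69 ± 0.96 CPM, a log2 change of -1.57 that was past the thresholds for a call. Passage 0 donors lay mostly below the filter on low counts, so ITGA1 entered the FAP fit through its muscle level. Its FAP levels are given as a description. With libraries thinned to equal depth ITGA1 was still called in VECs and SMMCs and no longer passed the filter on low counts in FAPs. ITGA11 in FAPs dropped from 135 UMIs to 15 UMIs although the passage 0 FAPs were far more deeply sequenced, from 6.03 to 31.4 CPM in muscle to 0 to 0.29 CPM, without overlap and in all 9 donors with both. ITGA11 entered the FAP fit only through its muscle level, so its passing of the filter already required a difference, and these levels are given as a description.

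ITGA5 went the other way. In SCs it went from 23.3 to 55.3 ± 5.13 CPM (48.5, 54.96 and 64.0), a log2 change of 1.52 ± 0.24 that was past the thresholds for a call. The highest muscle donor, at 71.7 CPM, lay above the culture range. SMMCs reached 278 ± 48.7 CPM of ITGA5 (228, 278 and 359; 1.80 ± 0.24, adjusted p = 7.03e-07). Macrophages went from 0 to 39.5 CPM in muscle to 80.1 ± 16.3 CPM (56.8, 79.9 and 110), a log2 change of 1.66 that was past the thresholds for a call. ITGA5 passed the filter on low counts in macrophages only through its culture level, so these levels are given as a description. In SCs every culture donor met that filter and many muscle donors did not, so the SC levels of ITGA5 are a description too. In FAPs, at 156 ± 14.1 CPM, and in VECs, at 223 ± 26.7 CPM, the log2 changes of ITGA5 were 0.44 and 0.73 and were not called. With libraries thinned to equal depth ITGA5 was still called in SMMCs (1.42, adjusted p = 0.021), was at -0.63 in FAPs, and no longer passed the filter on low counts in SCs and macrophages. SCs at passage 0 lay below every FAP value of ITGA5, the lowest of which was 132 CPM. The summed FAP markers in SCs moved alongside ITGA5, from 264 CPM in muscle (73.5 to 981) to 1643 CPM (1085 to 2095), while in FAPs themselves they went from 27093 to 4242 CPM, and their part in the ITGA5 values was not tested.

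**Figure D3:**
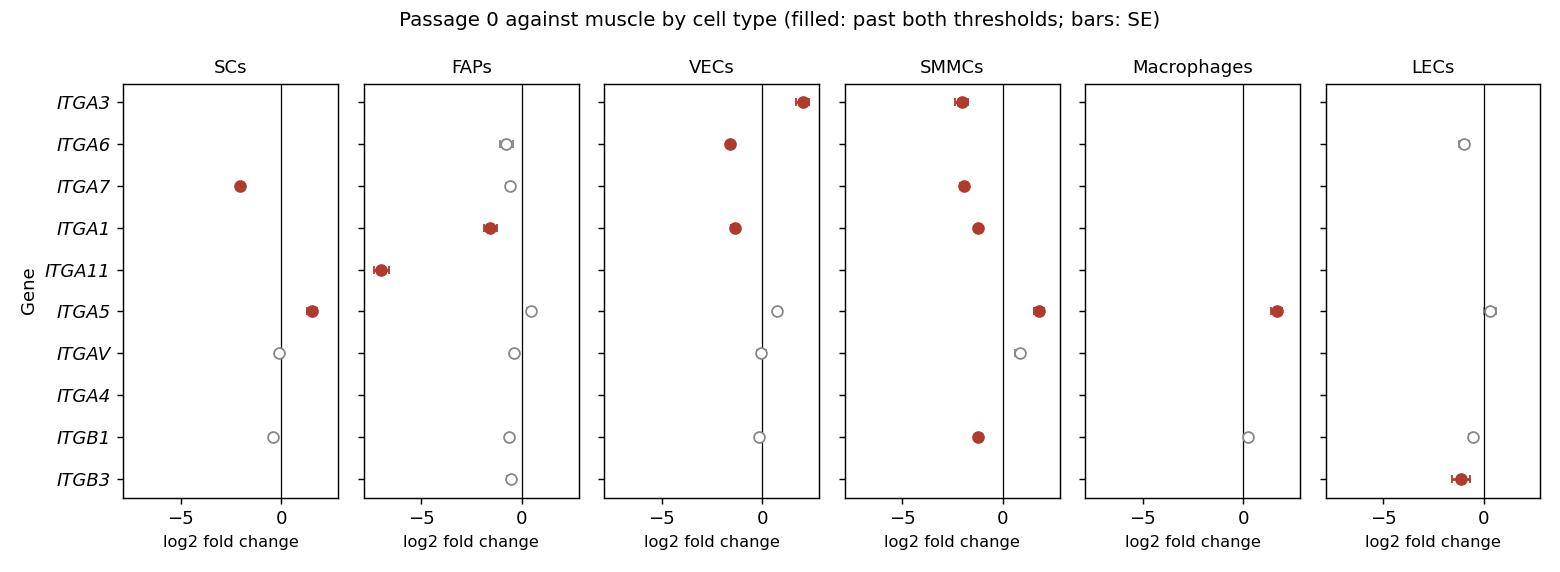
Log2 change of each integrin subunit from muscle (Timepoint 1) to passage 0 (Timepoint 2), by cell type, with error bars of 1 SE and filled points for calls at adjusted p under 0.05 and a log2 change beyond 1. ITGA5 was at 1.52 in SCs, 1.66 in macrophages and 1.80 in SMMCs, and ITGA7 was at -2.05 in SCs and -1.95 in SMMCs. The point of ITGA11 in FAPs was required by the filter and is a description. ITGA1 in FAPs, ITGA3 in VECs and SMMCs, ITGA5 in SCs and macrophages and ITGB3 in LECs passed it mainly through their higher group and are descriptions.

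The beta chains differed in where they could be tested. ITGB1 fell in SMMCs from 2020 to 849 ± 95.6 CPM (697 to 967), a log2 change of -1.26 ± 0.10 (adjusted p = 8.52e-11), and SMMCs still had the highest mean ITGB1. In FAPs its log2 change was -0.64 and in SCs -0.41, neither large enough for a call. With libraries thinned to equal depth ITGB1 was still called in SMMCs (-1.51) and was also called in FAPs (-1.85, adjusted p = 0.0132). ITGB3 was called in LECs alone, at a log2 change of -1.13 ± 0.45 (adjusted p = 0.0431), which did not hold when donors were paired as blocks (-1.38, adjusted p = 0.065) nor without donor 7 (-0.98, adjusted p = 0.16), donor 8 (-0.91, adjusted p = 0.21) or donor 10 (-1.10, adjusted p = 0.097). It passed the filter on low counts there mainly through its muscle level and is given as a description. ITGB3 was rare in muscle and not tested in SCs, which went from 1.35 to 6.52 ± 2.39 CPM (higher in 8 of 9 donors), in VECs, from 5.57 to 18.1 ± 8.05 CPM (8 of 9), and in macrophages, from 3.84 to 34.2 ± 16.6 CPM (7 of 7). ITGAV was called in no type, with a log2 change of 0.83 ± 0.23 in SMMCs and -0.11 in SCs. ITGA4 was tested in no type, and was at 3 UMIs in macrophages and 0 UMIs in VECs at passage 0, when lymphocytes were too few for a level.

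Of the members tested besides ITGA11, 1 of 7 was called in FAPs, where 43.4% of all tested genes were called. None was higher, against 20.9% of genes, and ITGA1 was lower, against 22.5%. In SCs 2 of 4 were called against 34.3% of genes (1 higher against 15.8%, 1 lower against 18.5%), and in VECs 3 of 6 against 35.1% (1 higher against 15.6%, 2 lower against 19.6%). In SMMCs 5 of 6 were called against 36.4% (1 higher against 15.1%, 4 lower against 21.3%). In macrophages it was 1 of 2 against 34.6% (higher, against 14.3%) and in LECs 1 of 4 against 29.6% (lower, against 14.8%). Each of these shares rests on 7 members or fewer, and with libraries thinned to equal depth the SMMC calls fell from 5 to 3. ITGA1 in FAPs, ITGA3 in VECs and SMMCs, ITGA5 in SCs and macrophages and ITGB3 in LECs passed the filter mainly or only through their higher group. The shares are thus a description and no result about integrins as a set.

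The difference between types in this change was tested as an interaction. The change of ITGA5 was lower in FAPs than in SCs, by a log2 difference of -1.33 ± 0.29 (adjusted p = 0.00018), and that of ITGA7 was less negative in FAPs than in SCs (1.19 ± 0.34, adjusted p = 0.00415) and than in VECs (1.84 ± 0.46, adjusted p = 0.000814). ITGA7 was not in the fit of VECs alone. Its VEC mean went from 24.8 to 4.24 CPM, lower in 6 and higher in 3 of 9 donors, with overlapping ranges. The change of ITGB3 was lower in FAPs than in SCs (-2.52 ± 0.66, adjusted p = 0.00157) and than in VECs (-2.35 ± 0.41, adjusted p = 3.42e-06). The muscle SCs held 5 ITGB3 UMIs and the muscle VECs 22, and the gene was in the fit of neither type alone. That of ITGA3 was higher in SCs than in FAPs (-2.82 ± 1.02 for FAPs minus SCs, adjusted p = 0.0239) and than in VECs (2.89 ± 0.85, adjusted p = 0.00494), sizes that rest on the 3 UMIs of ITGA3 in muscle SCs. These are 4 of 8 members for FAPs against SCs, where 20.2% of all genes were called (1 positive against 7.28%, 3 negative against 12.9%). They are 2 of 8 for FAPs against VECs, where it was 25.8% (1 positive against 13.1%, 1 negative against 12.7%), and 1 of 8, positive, for SCs against VECs, where it was 20.6% and 12.7% positive. All 7 calls were lost when the donor sums were thinned to the depth of the smallest.

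Other integrin genes were measured from a list of 16 further subunits, of which 15 were in the matrices and few were abundant enough to test. ITGB5, a beta chain that pairs with ITGAV, fell in FAPs (log2 change -3.01 ± 0.14), VECs (-2.14), SMMCs (-1.39) and macrophages (-1.20), and in SCs its log2 change was 0.032 ± 0.20 (adjusted p = 0.895). ITGB4, the beta chain of the hemidesmosome receptor and partner of ITGA6, fell in VECs (-2.86) and LECs (-4.33), and ITGA2, a collagen receptor chain, rose in VECs (1.25). Of 37 adhesion genes that act inside the cell, 6 of 32 tested were higher and 6 lower in FAPs (against 20.9% and 22.5% of all genes), 5 and 5 of 29 in SCs (15.8% and 18.5%), 6 and 10 of 32 in VECs (15.6% and 19.6%), and 0 and 11 of 26 in SMMCs (15.1% and 21.3%). FERMT1, a kindlin that binds integrin beta tails, was higher in FAPs (2.85), VECs (3.48) and LECs (4.64). TNS2, a tensin that links integrins to actin, was lower in FAPs (-2.61), SCs (-2.80), VECs (-3.80) and SMMCs (-2.43). Among 20 ligands, 14 of 17 tested fell in FAPs and 2 rose, with a median log2 change of -2.37, whereas 3 of 15 rose and 6 fell in SCs, against the same shares of all genes. In macrophages 7 of 8 ligands rose and none fell, with a median of 2.27 (against 14.3% and 20.4% of all genes), in VECs and in SMMCs 2 of 14 rose and 2 fell, and in LECs 0 of 9 rose and 3 fell (against 14.8% of all genes in either direction). LAMA2, the laminin chain of muscle basement membrane, fell in FAPs (-5.85) and in SCs (-3.24), and FN1, fibronectin, fell in FAPs (-2.92) and rose in SCs (2.38).

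Because ITGA7 and ITGA5 were stained in the sort, their transcripts were counted per cell at passage 0, after thinning each cell to 4000 UMIs. ITGA7 was seen in 18.03 ± 2.45% of SCs (13.6 to 21.7% over 9 donors) and in 2.67 ± 0.75% of FAPs, next to 1.77% of VECs, which serve as a background. Before thinning, the cells used held a median of 18437.5 UMIs in SCs, 25840.5 in FAPs and 14205.5 in VECs, and 30, 428 and 79 shallower cells were left out. ITGA5 was seen in 42.7 ± 2.48% of FAPs and 18.3% of SCs. No type served as a background for ITGA5: macrophages had it in 29.4% of cells and VECs in 53.6%, so that the share in SCs, the lowest of the types, cannot be told apart from free RNA. Both transcripts were seen in 3.31% of SCs, 0.93% of FAPs and 1.29% of VECs. SMMCs, a type that is neither, had ITGA7 in 24.6 ± 6.24% of cells, ITGA5 in 61.1 ± 3.48% and both in 16.3% (7 donors, a median of 14075 UMIs and 34 shallower cells left out). Without thinning the ITGA7 shares were 55.4% of SCs, 10.9% of FAPs and 4.61% of VECs, and those of ITGA5 81.7% of FAPs and 55.1% of SCs. At passage 2 the thinned share of SCs with ITGA7 was 41.07 ± 13.98%, and that of FAPs 6.25 ± 8.12% (1.36 to 25.0% over 8 donors). The highest FAP share is that of donor 10, with 12 FAPs, and without it the mean was 3.57%.

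From passage 0 to passage 2, SCs were compared in the 6 donors of SC and unsorted cultures, and FAPs in the 6 donors of FAP and unsorted cultures (see the plot over passages). In SCs, ITGA7 rose from 51.1 ± 5.17 CPM (44.9, 50.7 and 58.6) to 168 ± 84.5 CPM (70.7, 168 and 281), without overlap, a log2 change of 1.70 ± 0.29 (adjusted p = 0.00103). ITGA1 went from 1.76 ± 1.12 CPM (0 to 3.00) to 19.6 CPM (11.4 to 27.1), a log2 change of 3.28 that was past the thresholds for a call. It passed the filter on low counts mainly through its passage 2 level, so its levels are given as a description. ITGAV rose from a range of 32.7 to 53.7 CPM to one of 43.5 to 172 CPM, which overlapped (1.26 ± 0.35, adjusted p = 0.0152), and ITGA5 fell from 57.0 to 25.5 CPM without overlap (-1.17 ± 0.19, adjusted p = 0.000645). The calls were these 4 of the 8 members tested, against 8.73% of all genes (3 higher against 5.49%, 1 lower against 3.24%). ITGA7 and ITGA5 among them were chains of the sort and ITGA1 passed the filter mainly through passage 2, so the count is a description. With libraries thinned to equal depth ITGA1 alone was called. The 3 SC cultures among these 6 had been sorted on ITGA7 and ITGA5, and markers of other cell types moved alongside. From passage 0 to 2 the summed myocyte markers in SCs went from 0.96 to 552 CPM in donors of SC cultures and from 0.22 to 1028 CPM in donors of unsorted cultures, the SMMC list from 87.9 to 761 and from 52.7 to 372 CPM, and the FAP list from 1421 to 3250 and from 2043 to 6318 CPM. The part of the sort and of these markers in the integrin values was not tested.

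In FAPs ITGA1 rose too, from 2.90 CPM (1.77 to 4.61) to 37.7 ± 6.07 CPM (28.5 to 45.2), a log2 change of 3.83 ± 0.19 (adjusted p = 6.34e-09), and ITGAV rose from 35.1 CPM (25.7 to 42.2) to 116 ± 12.4 CPM (102.5 to 134), a change of 1.87 ± 0.10 (adjusted p = 1.05e-08). Neither overlapped. The summed SMMC markers, a type in which ITGA1 was high, went in these FAPs from 68.2 to 641 CPM in donors of FAP cultures and from 48.5 to 913 CPM in donors of unsorted cultures, and their part was not tested. The other members moved by less than 1 on the log2 scale, among them ITGA3 (0.68) and ITGA5 (0.34), so that 2 of 8 were called against 23.3% of genes, both higher, against 13.6%. Among other integrins ITGB5 rose in FAPs (2.60) and SCs (2.11), ITGA8, a receptor chain for nephronectin, rose in FAPs (3.87), and ITGA2 fell in FAPs (-5.66). Among the ligands, 11 of 18 tested rose in FAPs (against 13.6% of genes) and none fell, and in SCs 8 of 17 rose (against 5.49%) and 1 fell (against 3.24%). COL1A1, a chain of collagen I, rose by 4.11 in FAPs and by 3.37 in SCs.

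Between passage 2 and later passages, ITGA1 went on rising in FAPs of FAP and unsorted cultures. Its range was 48.1 to 78.2 CPM at passage 5 and 91.9 to 130 CPM at passage 8, each above that of the passage before, with log2 changes from passage 2 of 0.97 ± 0.12 (adjusted p = 0.000178) and 1.43 ± 0.13 (adjusted p = 3.56e-06). In these FAPs the SMMC list summed to 641, 349 and 1120 CPM at passages 2, 5 and 8 in FAP cultures and to 913, 462 and 1109 CPM in unsorted cultures, and the myocyte list to 15.7, 33.6 and 52.8 and to 15.2, 27.2 and 45.2 CPM. Their part was not tested. ITGA7 in FAPs was at 5.77 CPM (4.77 to 6.52) at passage 2 and 2.315 CPM (1.34 to 4.59) at passage 8 (-1.42 ± 0.22, adjusted p = 0.00113). SCs, in which ITGA7 was high, went from 3979 of 8966 cells in the passage 2 library to 156 of 2772 at passage 8. The SC markers moved in different directions in these FAPs. Their sum was 10.3 CPM at passage 2 and 15.9 CPM at passage 8 in FAP cultures and 8.62 and 18.7 CPM in unsorted cultures. Within it DES went from 3.94 to 9.28 and from 3.45 to 13.6 CPM and MYOD1, another myogenic factor, from 2.11 to 0.86 and from 1.56 to 0.80 CPM. MYF5 was at 2.66 to 4.56 CPM and NCAM1 at 0.93 to 1.48 CPM in these means, PAX7 at up to 0.022 CPM, and CHRDL2 and CALCR at 0. The part of SC transcripts in the ITGA7 values was not tested. ITGA6 rose from 3.98 CPM (1.51 to 7.72) to 24.5 ± 18.7 CPM (8.585 to 59.7; 2.59 ± 0.59, adjusted p = 0.0206), and ITGA3 from 8.90 to 21.7 ± 10.2 CPM (1.26 ± 0.28, adjusted p = 0.0184). With FAP cultures alone, the ITGA6 change was 1.68 (adjusted p = 0.38) and that of ITGA3 1.25 (adjusted p = 0.17). With libraries thinned to equal depth the ITGA1 call was kept and the others were lost, at 2.66 for ITGA6 (adjusted p = 0.22), 1.14 for ITGA3 (0.69) and -1.19 for ITGA7 (0.94). At passage 8, 4 of 8 members were called against 1.42% of genes (3 higher against 0.96%, 1 lower against 0.463%), and at passage 5 none, against 3.41%. The passage 5 count of 0 is from edgeR's quasi-likelihood test, in which 2 members, ITGA1 and ITGB3, had an unadjusted p under 0.05, and DESeq2 called 0 too.

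In SCs of SC and unsorted cultures none of the 8 members was called at passage 5, against 0.186% of genes, by edgeR's quasi-likelihood test, in which ITGA1 was the 1 member at an unadjusted p under 0.05, nor was any called by DESeq2. With donors paired as blocks ITGA6 was called there (log2 change 1.03, adjusted p = 0.014). At passage 8, where 4 donors had at least 10 SCs, ITGA1 was at 56.8 ± 32.5 CPM (24.1 to 95.7) after 11.4 to 27.1 CPM at passage 2, a log2 change of 1.60 ± 0.39 (adjusted p = 0.039) and 1 of 8 members called against 1.42% of genes (higher, against 0.86%). That call was lost with at least 30 cells per donor (adjusted p = 0.14) and without donor 1 (0.13), donor 2 (0.068), donor 6 (0.21) or donor 10 (0.11). Between passages 2 and 8 the myocyte list in SCs went from 552 to 4649 CPM in SC cultures and from 1028 to 1388 CPM in unsorted cultures, and the SMMC list from 761 to 1401 and from 372 to 505 CPM, and their part was not tested. With donors paired as blocks 2 members were called, ITGA6 (1.74, adjusted p = 0.0094) and ITGA1 (1.34, adjusted p = 0.031). ITGA7 in these SCs ranged from 40.2 to 265 CPM. ITGA4 and ITGA11 stayed below 1 CPM on average in FAPs and SCs at every passage.

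**Figure D4:**
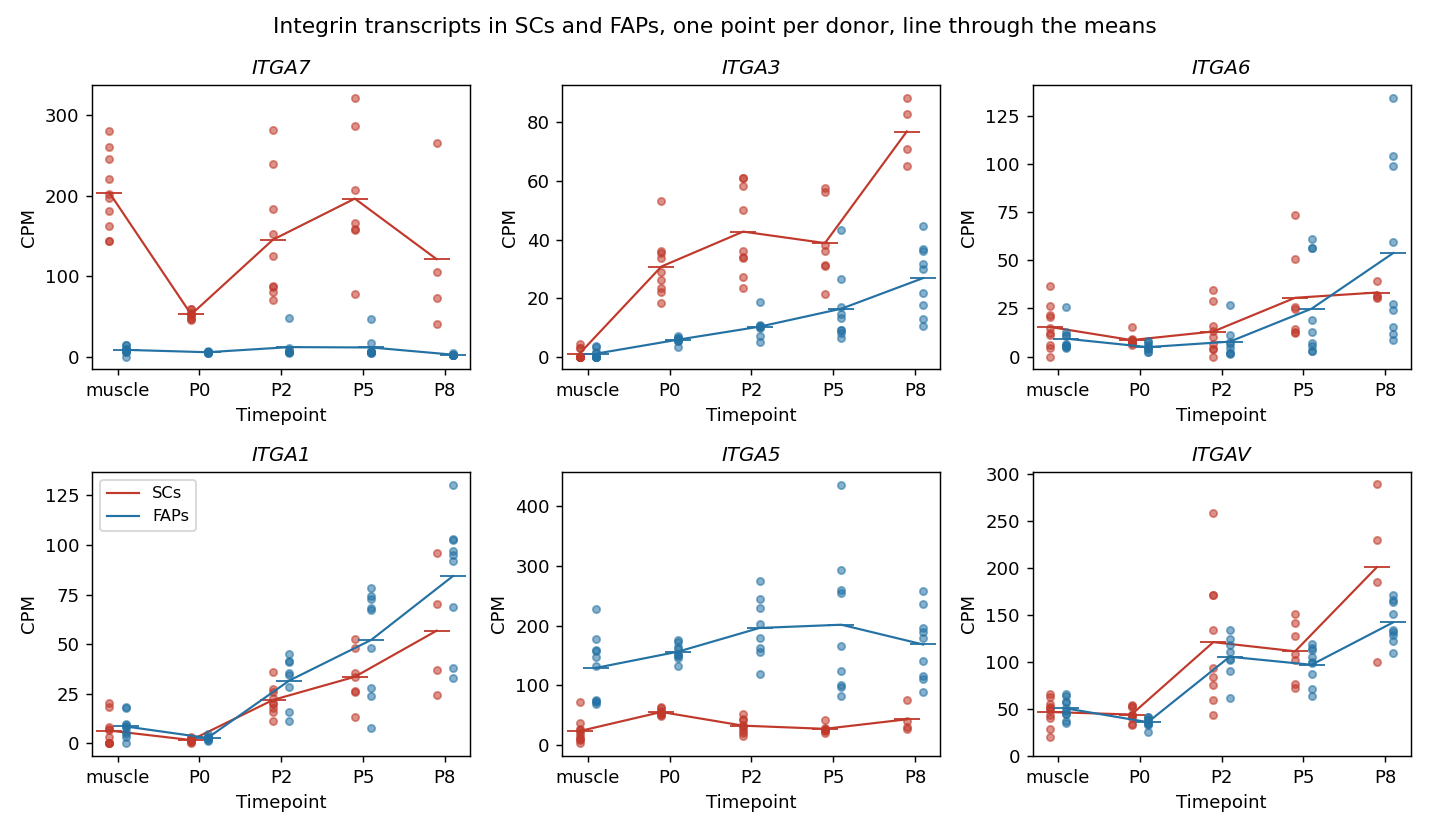
Integrin levels in SCs and FAPs at each timepoint, in CPM, where each point is 1 donor with at least 10 cells and lines join the means over all cultures. ITGA7 in SCs fell at passage 0 and was higher at passage 2, ITGA1 increased in both types from passage 0 to 8, and the spread of ITGA6 in FAPs widened to 8.585 to 134 CPM at passage 8.

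SC cultures were compared with FAP cultures over all their cells, whatever the type, with 3 donors each. In such sums alone a change of cell makeup and a change per cell cannot be told apart. SCs made up 98.3 to 99.4% of the cells of SC cultures at passage 2, 43.0 to 98.0% at passage 5 and 3.35 to 17.3% at passage 8, and at most 10.4% in FAP cultures. The passage 2 values thus set mostly SCs against mostly FAPs, and differences there are largely between these cell types. ITGA7, which described the sort, was at 276, 238 and 182 CPM in SC cultures of donors 5, 6 and 10 at passage 2 and at 17.0, 11.25 and 7.27 CPM in FAP cultures of donors 4, 7 and 8. At passage 8 it was at 2.98, 5.43 and 46.4 CPM against 1.465, 2.61 and 2.18 CPM, without overlap. ITGA5, the other chain of the sort, was at 20.6, 21.7 and 25.35 CPM against 188, 155 and 118 CPM at passage 2. The groups overlapped for ITGA5 at passage 5, at 167, 33.8 and 52.3 CPM against 101.004, 96.3 and 82.5 CPM, and at passage 8, at 139.6, 185 and 154 CPM against 197, 116 and 89.1 CPM. Both chains are given as a description of the sort.

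Of the members outside the sort, ITGB3 separated the cultures at every passage. It was at 3.86, 5.74 and 3.99 CPM in SC cultures and 37.7, 49.25 and 50.4 CPM in FAP cultures at passage 2 (-3.52 ± 0.23, adjusted p = 0.000448), and the difference was -2.24 ± 0.41 at passage 5 (adjusted p = 0.00737) and -1.30 ± 0.17 at passage 8 (adjusted p = 0.0219). ITGA3 was higher in SC cultures, at 35.45, 23.3 and 60.6 CPM against 12.6, 11.3 and 7.875 CPM at passage 2 (1.73 ± 0.36, adjusted p = 0.0136), and at passage 5 by 1.92 ± 0.19 (adjusted p = 0.00126). ITGA1 (-1.26 ± 0.29, adjusted p = 0.0192) and ITGAV (-1.15 ± 0.20, adjusted p = 0.0078) were lower in SC cultures at passage 2. ITGA6 was higher in them at passage 5, by 3.05 ± 0.66 (adjusted p = 0.0125), and at passage 8, by 2.53 ± 0.35 (adjusted p = 0.0268). Of the 6 members tested outside the sort, 4 were called at passage 2 against 18.2% of genes (1 higher in SC cultures against 6.99%, 3 lower against 11.2%). At passage 5 it was 3 of 6 against 19.5% (2 higher against 10.4%, 1 lower against 9.06%), and at passage 8, 2 of 6 against 1.42% (1 higher against 0.582%, 1 lower against 0.842%). Single donors decided some calls: at passage 2 ITGA1 was lost without donor 7 (adjusted p = 0.068), 8 (0.055) or 10 (0.054) and ITGA3 without donor 7 (0.051), and at passage 5 ITGA6 was lost without donor 8 (0.052). Without donor 5 the sizes of ITGA1 (-0.99) and ITGAV (-0.96) at passage 2 were under 1, and the ITGA6 and ITGB3 calls at passage 8 were each lost on leaving out donor 5, 6 or 7 (adjusted p of 0.061 to 0.15), ITGA6 also without donor 10 (0.073) and ITGB3 without donor 8 (0.06).

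The same contrast was then made within cells deposited as FAPs, which outnumbered SCs in SC cultures by passage 8. At passage 5, ITGA6 was at 60.8, 56.4 and 56.45 CPM in FAPs of SC cultures (donors 5, 6 and 10) and at 2.69, 5.49 and 2.83 CPM in FAPs of FAP cultures (donors 4, 7 and 8), a log2 difference of 3.81 ± 0.28 (adjusted p = 8.87e-05). All 3 donors of SC cultures lay above all others, unsorted cultures (18.8, 7.21 and 12.6 CPM) included. ITGA3 was at 43.2, 16.9 and 26.6 CPM against 9.04, 9.00 and 6.285 CPM (1.82 ± 0.31, adjusted p = 0.00285). ITGA5, a chain of the sort and so given as a description, was at 260.4, 293.5 and 436.5 CPM against 101.3, 96.6 and 82.5 CPM. ITGA1 was lower in FAPs of SC cultures, at 7.96, 23.7 and 28.0 CPM against 74.4, 48.1 and 68.5 CPM (-2.24 ± 0.49, adjusted p = 0.0147). The calls were 3 of the 6 members tested outside the sort, against 15.9% of genes (2 higher against 7.99%, 1 lower against 7.9%), and they rest on 593, 31 and 70 FAPs of donors 5, 6 and 10. Thinned to the depth of the smallest donor sum, all 3 calls were lost (log2 differences of 2.02 for ITGA6, 1.30 for ITGA3 and -0.81 for ITGA1), and without donor 8 the adjusted p of ITGA1 was 0.052.

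At passage 8, with 172 to 542 FAPs per SC culture, ITGA6 was at 98.8, 134 and 104 CPM in FAPs of SC cultures and at 27.4, 15.4 and 8.585 CPM in those of FAP cultures, again without overlap (2.65 ± 0.37, adjusted p = 0.0272). ITGA1 was at 32.85, 68.8 and 38.1 CPM against 130, 102 and 103 CPM (-1.31 ± 0.26, adjusted p = 0.0499), and ITGB3 at 17.1, 17.8 and 11.8 CPM against 34.6, 40.3 and 37.9 CPM (-1.31 ± 0.19, adjusted p = 0.0238). These 3 of 6 members outside the sort stood against 1.75% of genes (1 higher against 0.696%, 2 lower against 1.05%). Each of the 3 calls was lost on leaving out 1 of several donors: ITGA6 without donor 5, 6, 7 or 10 (2.51 to 2.71, adjusted p of 0.077 to 0.14), ITGB3 without donor 5, 6, 7 or 8 (adjusted p of 0.055 to 0.12), and ITGA1 without donor 4, 5, 7, 8 or 10 (adjusted p of 0.061 to 0.18).

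Before the sort ITGA6 in FAPs of these donors separated in the other direction, without overlap. FAPs at passage 0 held 2.50, 4.32 and 3.82 CPM of ITGA6 in donors 5, 6 and 10 and 7.75, 8.24 and 5.76 CPM in donors 4, 7 and 8, a log2 difference of -0.96 ± 0.22 (adjusted p = 0.561), in a comparison added after the data had been seen. In it edgeR's quasi-likelihood test called 0 of 11448 genes, with 984 at an unadjusted p under 0.05, and DESeq2 called 6. Among those 984 was 1 of the 6 members outside the sort. The part of donor, sort and coating in the later difference was not tested. At passage 2, with 19 and 12 FAPs in SC cultures of donors 5 and 10, ITGA6 was at 11.2 and 26.7 CPM against 7.72, 6.65 and 1.62 CPM, and 0 of 6 members outside the sort were called by edgeR's quasi-likelihood test, against 0.259% of genes, with 3 at an unadjusted p under 0.05. DESeq2 called ITGA1 and ITGB3 of these.

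The cells called FAPs in SC cultures differed in other ways too. Their summed FAP markers were 7904 CPM (6832 to 8619) at passage 5 against 38310 CPM (32334 to 41404) in FAP cultures, and 8363 against 26387 CPM at passage 8, whereas at passage 0 they were 4640 against 3943 CPM. In SCs of the SC cultures the FAP list summed to 5952 CPM (4653 to 7035) at passage 5 and 5430 CPM (3264 to 7597) at passage 8. Both ranges overlapped those of the FAPs there (7517 to 9986 CPM at passage 8). The SC list was at 809 CPM (595 to 943) in those SCs at passage 5. In the FAPs the SC marker list summed to 29.4 CPM (10.6 to 54.2) against 15.1 CPM (13.5 to 16.2) in FAP cultures at passage 5, the VEC list to 4.12 against 12.5 CPM and the LEC list to 1.06 against 0.72 CPM. The SMMC list summed to 751 CPM (402 to 1055) against 349 CPM (240 to 518) at passage 5 and to 714 against 1120 CPM at passage 8. The part of these differences in the integrin values was not tested.

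Around the members, TLN2, a talin that joins integrins to actin, was higher in FAPs of SC cultures at passage 5 (4.38 ± 0.44) and passage 8 (4.08 ± 0.52), as was ITGA10, a collagen receptor chain, at passage 5 (2.02). ITGB8 was lower there (-2.10). Of the other integrins 2 of 7 tested were higher and 2 lower at passage 5, of the adhesion genes 4 of 35 higher and none lower, and of the ligands 1 of 18 higher and 8 lower, against 7.99% and 7.9% of all genes in each case. Among the ligands that were lower were COL1A1 (-2.49) and COL3A1 (-2.86), fibrillar collagen chains.

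**Figure D5:**
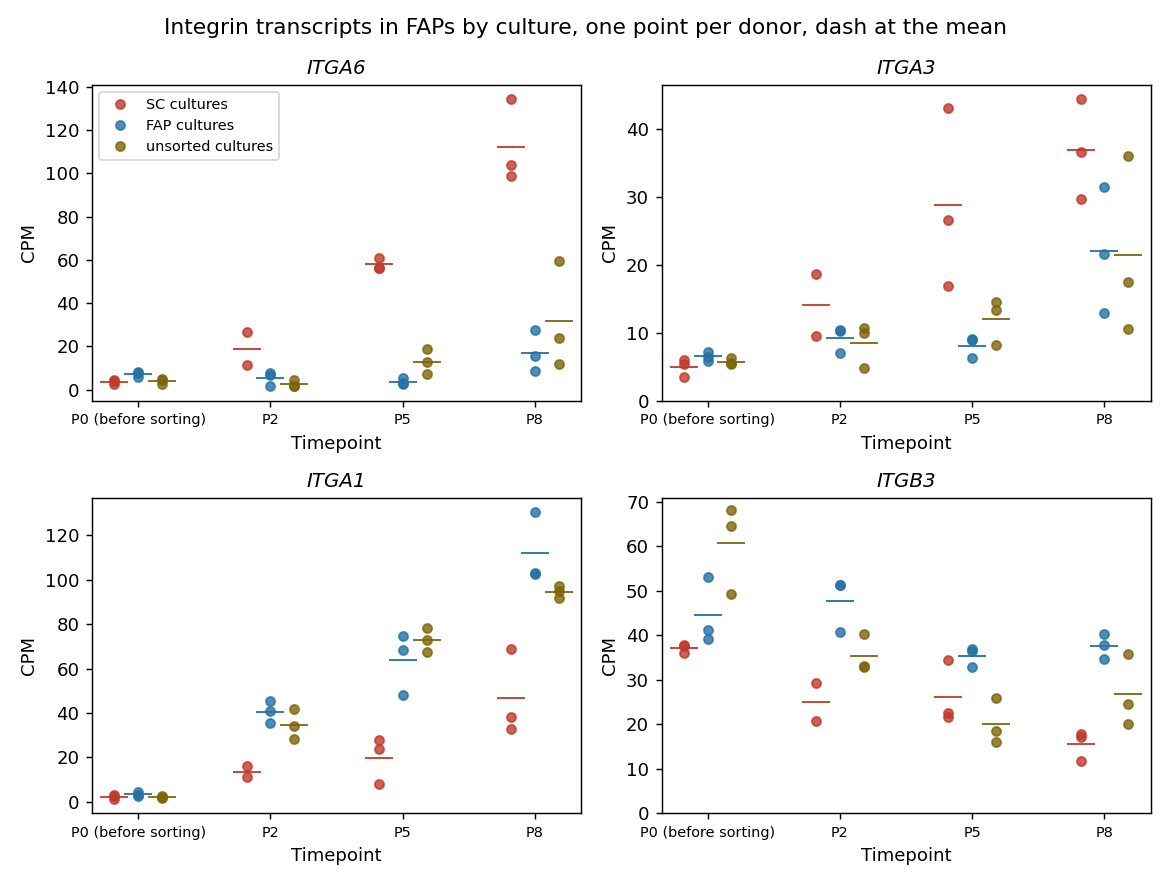
Integrin levels in cells deposited as FAPs by culture (unsorted on fibronectin, SC cultures on laminin-521, FAP cultures on collagen I) from passage 0, before the sort, to passage 8, in CPM with 1 point per donor. At passages 5 and 8 ITGA6 in SC cultures (56.4 to 60.8 and 98.8 to 134 CPM) lay above all other cultures, and ITGA1 in SC cultures below them.

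In SCs at passage 2, SC cultures were set against unsorted cultures. ITGAV was at 43.5, 76.1 and 59.6 CPM in SCs of donors 5, 6 and 10 and at 172, 93.6 and 172 CPM in SCs of donors 1, 2 and 9, without overlap (log2 difference -1.40 ± 0.29, adjusted p = 0.0294), the 1 call among 6 members outside the sort, against 7.51% of genes (lower, against 4.46%). It was lost without donor 1, 5, 9 or 10 (adjusted p of 0.071 to 0.11). ITGA7 was at 281, 239.5 and 184 CPM against 70.7, 153 and 79.9 CPM, which did not overlap either. The summed FAP markers in these SCs were 3250 CPM in SC cultures against 6318 CPM in unsorted cultures, the myocyte list 552 against 1028 CPM and the SMMC list 761 against 372 CPM, and their part was not tested. ITGA7 was stained in the sort of these SC cultures, so its levels are a description.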

How the data were processed

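Cells pooled per timepoint were sequenced as droplet-based 3′ libraries, and the authors counted reads with Cell Ranger 6.0.1 on ARS-UCD1.2, assigned donors with demuxlet and annotated cell types. The deposited values used were raw UMI counts per gene and barcode, and per the file headers the cell tables gave donor, class and type. No separate files of repeat sequencing runs were used here, and each timepoint counts as 1 library. The raw UMI total differed from the total in the deposited cell table for all 4395 and 2772 cells kept at Timepoints 1 and 5 and for 662 to 935 cells at the others. The matrices held 8579 to 22164 barcodes, of which 36129 were kept singlets, and the UMI counts of kept cells summed to 20977722 to 252316585 per library. Doublets within a donor escape demuxlet, and were not searched for.

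UMI counts were summed per donor and deposited type, and 159 of 218 sums had at least 10 cells. The 9 donors sampled after muscle were separate animals, but 1 library per timepoint held them all, so p-values measure the spread between animals within a library. Fits used edgeR 4.0.16 in R 4.3.3 (TMM, filterByExpr, robust quasi-likelihood F test, 2-sided), with Benjamini-Hochberg adjustment over all genes tested and calls at an adjusted p under 0.05 and a log2 change beyond 1. DESeq2 1.42.0, no filter on low counts, at least 30 cells, thinning of all sums in a fit to the smallest, a donor block, sorted cultures alone and leaving out each donor were alternatives. The fits were tested on simulated data. Donor numbers pair samples because they are the same animals. The correlation of a donor's deviations from the group means between Timepoints 1 and 2 was -0.023 to 0.16 in FAPs, -0.14 to 0.18 in SCs and -0.026 to 0.17 in VECs.

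The members and gene lists were chosen with earlier results of these data known. All 10 members are reported; of the other lists, the 3 largest called changes per comparison could be named, and for likeness the 3 genes of highest r per member. ITGA4, ITGA1, ITGA5, ITGA6, ITGA7 and ITGAV overlap another annotated gene in RefSeq's ARS-UCD2.0 table (6 of 10 members), among them PELO for ITGA1, and reads of overlapping genes could be split between them. Limits for a count of 0 use 3 counts.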

Additional observations from a re-analysis of the deposited data

Results flagged for a closer look

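Of 119 levels of a member in a type with at least 50 UMIs, 19 had 1 donor standing apart from the rest of its group by Dixon's criterion, and chance flags about 5% of groups. In muscle, donor 3 was highest for ITGA6 in FAPs (25.9 CPM, others 4.25 to 12.8) and for ITGA5 in SCs (71.7 CPM, others 2.82 to 37.6). Also in muscle, ITGA4 was 155 CPM in lymphocytes of donor 6 (others 25.0 to 94.1) and 84.2 CPM in macrophages of donor 4 (others 33.3 to 54.3), ITGAV was 48.3 CPM in VECs of donor 8 (others 8.74 to 25.8), and ITGB1 in VECs of donor 1 was the lowest at 669 CPM (others 741 to 814).

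At passage 0, ITGA3 in FAPs of donor 5 was low at 3.43 CPM (others 5.46 to 7.20), ITGA6 in SCs of donor 4 was 15.2 CPM (others 5.90 to 9.19), and ITGB3 in SMMCs of donor 9 was 88.2 CPM (others 2.63 to 33.3). At passage 2, the 12 FAPs of donor 10, an SC culture, were highest for ITGA3 (18.7 CPM, others 4.81 to 10.8), ITGA6 (26.7 CPM, others 1.51 to 11.2) and ITGA7 (48.0 CPM, others 4.77 to 11.2). ITGB1 in FAPs of donor 4 was 581 CPM (others 432 to 483), and ITGB3 in SCs of donor 7 was 15.5 CPM (others 3.52 to 8.19).

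At passage 5, ITGA7 in the 31 FAPs of donor 6, also an SC culture, was 46.3 CPM (others 4.59 to 16.5), and ITGA11 in FAPs of donor 7 was 1.16 CPM (others 0 to 0.56). SCs of donor 4, a FAP culture, were highest for ITGA5 (42.6 CPM, others 19.3 to 28.3) and ITGB3 (14.2 CPM, others 2.59 to 5.12). At passage 8, ITGA7 in FAPs of donor 9 was 4.59 CPM (others 1.34 to 2.43).

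The change from muscle to passage 0 differed between cell types by the interaction test for 7 values. On the log2 scale, the FAP change minus the SC change was -1.33 for ITGA5, 1.19 for ITGA7, -2.82 for ITGA3 and -2.52 for ITGB3. The FAP change minus the VEC change was 1.84 for ITGA7 and -2.35 for ITGB3, and the SC change minus the VEC change was 2.89 for ITGA3. The ITGA3 and ITGB3 values rest on few UMIs in muscle SCs or VECs, and ITGA7 and ITGB3 were not in the fit of VECs alone. All 7 calls were lost when the donor sums were thinned to equal depth.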

How the results depend on the processing

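Each alternative changed 1 choice. Of 1203 log2 changes of single members recomputed, 1067 kept their direction and side of the thresholds, 27 passed them only in the alternative, 66 no longer passed and 43 changed sign, none of the last called at first. The type with the highest level of a member in muscle was the same for all 10 members under both other ways of averaging, and 347 of 360 levels moved by less than 1 SD. Shares of cells with a UMI rest on depth: 25 of 32 moved when thinned to 2000 UMIs or not thinned.

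Thinned to equal depth, the members called fell from 2 to 1 in FAPs, from 5 to 3 in SMMCs and to 0 in SCs, macrophages and LECs between muscle and passage 0, and to 0 for all 3 differences between types. They fell from 4 to 1 in SCs from passage 0 to 2 and in FAPs from passage 2 to 8, and to 0 in SCs from passage 2 to 8, in FAPs of SC against FAP cultures at passage 5, and in SCs of SC against unsorted cultures. Genes called fell with them, between muscle and passage 0 from 3997 to 612 in FAPs, 1789 to 189 in SCs, 2071 to 1149 in VECs, 1257 to 438 in SMMCs, 1003 to 476 in macrophages and 899 to 272 in LECs. For the differences it was 1833 to 113 (FAPs, SCs), 2341 to 116 (FAPs, VECs) and 1870 to 57 (SCs, VECs). Over passages it was 865 to 177 in SCs at passage 2, 405 to 81 and 169 to 21 in FAPs at passages 5 and 8, and 19 and 145 to 0 in SCs. In FAPs of SC against FAP cultures it was 30 to 0 at passage 2 and 1830 to 34 at passage 5, and in SCs of SC cultures 855 to 109. Thinning discards most counts of the deeper sums. Without the filter on low counts 5 members were called in SCs, 5 in VECs and 6 in macrophages between muscle and passage 0, 2 for SCs against VECs, 0 in SCs from passage 2 to 8 and 1 in FAPs of SC cultures at passage 2. Genes called were then 6925 in FAPs, 5286 in SCs, 5030 in VECs, 4216 in SMMCs, 3389 in macrophages and 1863 in LECs, 1473 in SCs at passage 2, and 205 in FAPs of SC cultures at passage 2. With DESeq2, 3 members were called in FAPs of SC cultures at passage 2 and 2 in SCs of SC cultures; genes called were 75 and 255 in SCs at passages 5 and 8, 384 for SC against FAP cultures at passage 8 (142 by edgeR), 692 and 414 in FAPs of SC cultures at passages 2 and 8 (30 and 173 by edgeR) and 6 at passage 0. With at least 30 cells, 0 members and 59 genes were called in SCs at passage 8, and 2177 genes in SMMCs.

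With donor as replicate block, the members called were 0 in LECs, 1 in SCs from passage 2 to 5 and 2 in SCs from passage 2 to 8, with 216 and 275 genes in these SCs and 304 in FAPs at passage 8. The block changed no other count of members by over 1.5 times. With sorted cultures alone, 2 members each were called in FAPs and in SCs from passage 2 to 8, and genes called were 159 and 23 in FAPs at passages 5 and 8 and 318 and 814 in SCs. Leaving out 1 donor at a time gave 0 to 1 members in LECs and in SCs at passage 8, and 0 to 2 for SC against FAP cultures at passage 8, for their FAPs at passages 2 and 8, and for SCs of SC cultures. Genes called ranged from 10 to 244 in SCs at passage 8, 3 to 414 for SC against FAP cultures at passage 8, 0 to 945, 1 to 523 and 0 to 1 for their FAPs at passages 2, 8 and 0, and 1 to 1114 for SCs of SC cultures.

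Signs turned as follows, as log2 changes under the alternative. Between muscle and passage 0 these were ITGA5 in FAPs when thinned (-0.63), and without the filter ITGAV in SCs (0.24) and ITGAV and ITGB1 in VECs (0.17 and 0.025). For the differences they were ITGB1 between FAPs and SCs when thinned (0.11), ITGA6 between FAPs and VECs when thinned (-1.23), ITGA3 there with 30 cells (-0.060), and, between SCs and VECs, ITGA7 and ITGA1 when thinned (-1.92 and 1.25), ITGAV and ITGB3 with 30 cells (-0.052 and -0.035) and ITGB1 without the filter (0.0035). In FAPs at passage 5 with FAP cultures alone they were ITGA6 (-0.44), ITGA7 (-0.11), ITGB1 (-0.099) and ITGA3 (-0.083), and at passage 8 ITGA5 when thinned (0.15). In SCs at passage 5 they were ITGAV (-0.23), ITGA6 (-0.50), ITGB1 (-1.41) and ITGA3 (1.86) when thinned, ITGA5 with the block (0.025), and ITGA5 (0.27) and ITGB3 (0.022) with SC cultures alone, and at passage 8 ITGA7 with 30 cells (0.10).

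In FAPs of SC cultures at passage 2 they were ITGAV (1.24) and ITGB1 (0.54) when thinned. On leaving out 1 donor at a time, members that turned sign ranged from -1.35 to 0.023 for ITGA5 between SC and FAP cultures at passage 5, and at passage 8 from -0.081 to 0.16 for ITGAV and from -0.024 to 0.55 for ITGA5. In FAPs of these cultures the ranges were -0.0059 to 0.096 for ITGA5 at passage 0, -0.14 to 0.76 for ITGA3 at passage 2, and -0.062 to 0.15 for ITGAV and -0.055 to 0.34 for ITGA7 at passage 8. In SCs of SC against unsorted cultures they were -0.26 to 1.73 for ITGA6 and -0.50 to 0.074 for ITGA1. The causes were not tested. Calves against adults, with sex as a covariate, was not run: the study lists age and sex by animal, but the sample labels, from which groups were taken, do not; 30 cells could not be asked for in macrophages, LECs and FAPs of SC cultures at passage 2, where fewer than 2 sums per group were left. With the filter on low counts, ITGA4 was tested in no type, and ITGA11 only in the FAP fit from muscle to passage 0, which it entered through its muscle level.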
